A study of Mus musculus with 6 samples.

Results

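The expression of 8 genes of programmed cell death was followed in cells sorted from mouse small cell lung tumours, measured as 16 probe sets of an Affymetrix 3′ expression array. They are the death receptors Fas, Tnfrsf10b and Tnfrsf1a, the adaptor Fadd, the caspases Casp8, Casp9 and Casp1, and the caspase-8 inhibitor Cflar. Every probe set annotated to exactly 1 of these symbols was taken, which gave 16 of the 45037 probe sets tested and 8 of 18193 genes. The tumours came from mice of a mixed C57BL/6;129Sv/J background that carry the Rb/p53/p130 triple knockout model, in which adenoviral Cre deletes all 3 tumour suppressor genes, and were harvested 6 to 7 months after infection. Dissociated tumours were stained for CD24, CD44 and EpCAM, and each of the mice 1127, 920 and 0107 gave 1 array of tumour-propagating cells (TPCs) and 1 array of non-TPCs, so that both fractions share the genotype and the untreated condition. The sources used here give neither the gates of the sort nor the ages of the mice. All levels are RMA values on a log2 scale, and all differences are TPC minus non-TPC on that scale.

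Death receptors are cell surface proteins that, once bound by ligands of the TNF family, gather the adaptor FADD and caspase-8 into a signalling complex. This is the extrinsic arm of apoptosis. c-FLIP, the product of Cflar, resembles caspase-8 and competes with it in that complex. The mitochondrial arm instead activates caspase-9 on the apoptosome, and both arms end in the executioner caspases, which cut the proteins of the cell. Caspase-1 serves another purpose: on inflammasomes it matures interleukin-1 beta and starts a lytic form of cell death. Fas and Tnfrsf10b are known transcriptional targets of p53, which is deleted in the tumour cells of both fractions.

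No member probe set passed the test between the fractions. In limma with Benjamini-Hochberg adjustment over all probe sets, 0 of 16 member probe sets had an adjusted p under 0.05, where the background was 0.0244% of all probe sets, each of them lower in TPCs. At an unadjusted p under 0.05 there were 3 member probe sets, where the background was 5.46%. They were those of Fas and Casp1, lower in TPCs (background 3.44%), and the brightest of Casp9, higher in TPCs (background 2.02%). With the mouse as a block, 0 of 16 passed the adjusted threshold as well (background 0.02%). The same 3 probe sets were those whose fractions did not overlap. For 2 of 16 every TPC array lay below every non-TPC array (background 5.08%), and for 1 of 16 every TPC array lay above (background 6.5%). The median difference over the 16 probe sets was 0.03, beside 0.04 over all probe sets. With 3 arrays per fraction the precision is limited by the number of arrays.

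**Figure D1:**
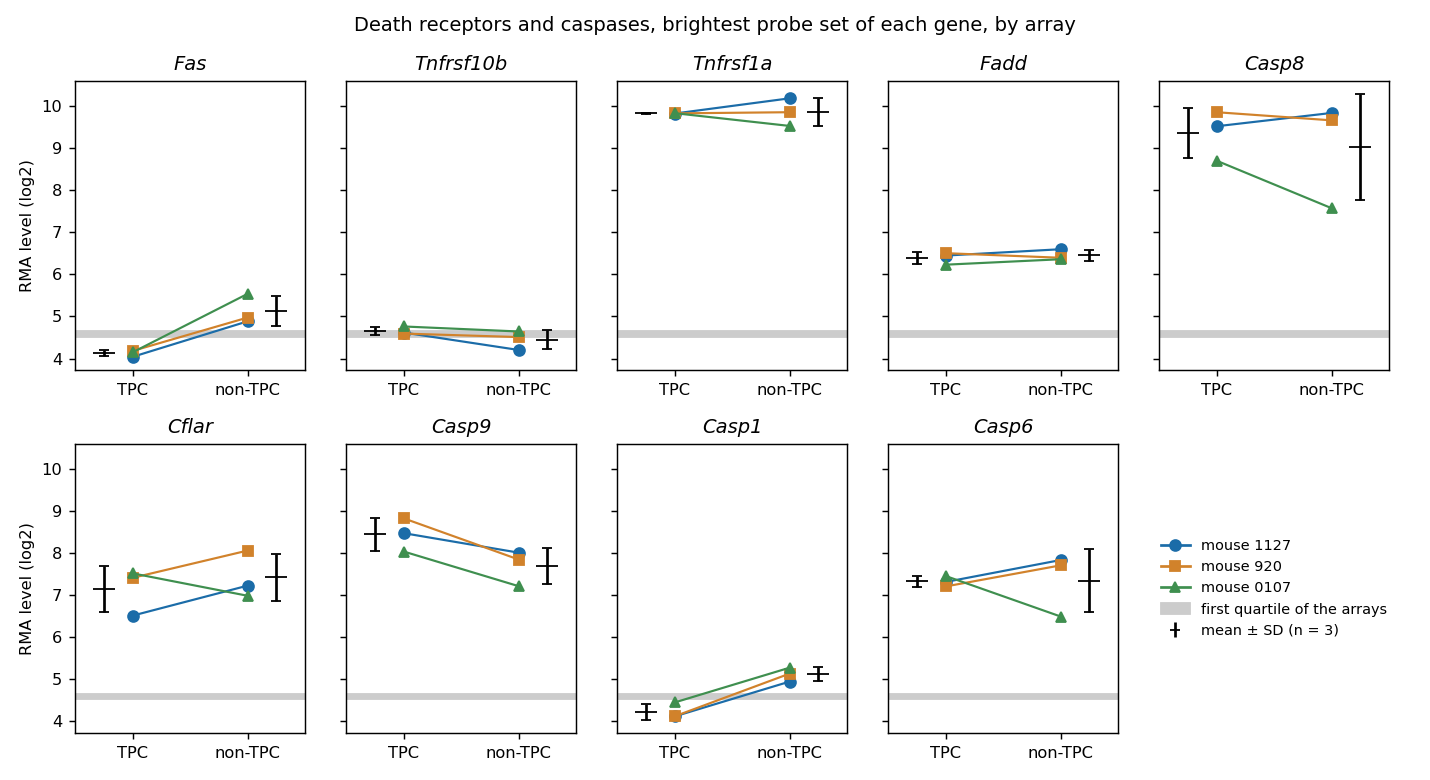
RMA level (log2) of the brightest probe set of each of the 8 genes, and of the executioner caspase gene Casp6, in TPCs (left) and non-TPCs (right). Lines join the fractions of a mouse, black bars are the mean ± SD of 3 arrays, and the grey band is the range of the arrays' first quartiles, 4.52 to 4.65. Fas and Casp1 lay below the band in all 3 TPC arrays and above it in all 3 non-TPC arrays, and Casp9 was higher in the TPCs of each mouse.

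The members were expressed at very different positions within the arrays. By mean level the Tnfrsf1a probe set stood at the percentile 92.5 of all probe sets, that of Casp8 at 88.8 and the brightest of Casp9 at 78.9. Fas stood at the percentile 25.3 and Casp1 at 26.2, and both Tnfrsf10b probe sets stood lower than these. These positions place signals within the array and do not rank transcripts, because probe sets differ in how strongly they bind. Of the 16 probe sets, 7 lay above the median level of all probe sets, 6.04, and 3 lay below the first quartile.

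Fas encodes the receptor for Fas ligand. Its only probe set, 1460251_at, was at 4.04, 4.18 and 4.15 in TPCs of mice 1127, 920 and 0107, against 4.88, 4.97 and 5.54 in their non-TPCs. The TPC values were tightly grouped and below the first quartile of their arrays, and the highest non-TPC value was that of mouse 0107. Within the mice Fas differed by -0.84, -0.79 and -1.39. TPCs averaged 4.12 ± 0.07 and non-TPCs 5.13 ± 0.35 (SD, n = 3 each), a difference of -1.01 (SE 0.19, 95% interval -1.47 to -0.54), or 2.01-fold. It did not pass over all probe sets (limma adjusted p = 0.384, and 0.23 with the mouse as a block). Because the TPC values sit in the dim range, the size of this difference rests on weak signal.

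Tnfrsf10b, the mouse death receptor for TRAIL, had 2 dim probe sets that disagreed in sign. The brighter, 1422344_s_at, was at 4.62, 4.59 and 4.76 in TPCs of mice 1127, 920 and 0107, against 4.20, 4.51 and 4.64 in non-TPCs. It was higher in the TPCs of each mouse, by 0.08 to 0.41, but the fractions overlapped (difference 0.21, 95% interval -0.16 to 0.57, limma adjusted p = 0.954). The other, 1421296_at, differed by -0.12 (95% interval -0.47 to 0.23). Both lay near or below the first quartile, so a difference in this receptor could have gone undetected.

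Tnfrsf1a, the main receptor for TNF, was the brightest member. It was at 9.82, 9.82 and 9.83 in TPCs of mice 1127, 920 and 0107, against 10.18, 9.85 and 9.52 in non-TPCs. The TPC arrays were nearly equal, and the non-TPC arrays were spread on both sides of them. The difference was -0.03 with a 95% interval of -0.46 to 0.41 (limma adjusted p = 0.992), and within the mice it was -0.36, -0.03 and 0.30.

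Fadd, the adaptor that links Fas and the TRAIL receptor to caspase-8, had 2 probe sets of middle level. The brighter, 1416888_at, was at 6.44, 6.50 and 6.23 in TPCs of mice 1127, 920 and 0107, against 6.59, 6.39 and 6.36 in non-TPCs. The fractions overlapped, and the interval of the difference was among the narrowest of the members (difference -0.06, 95% interval -0.38 to 0.27). The dimmer probe set, 1446499_at, differed by 0.09 (95% interval -0.22 to 0.40).

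Casp8, the initiator caspase of the extrinsic arm, varied more between mice than between fractions. It was at 9.51, 9.85 and 8.70 in TPCs of mice 1127, 920 and 0107, against 9.83, 9.66 and 7.57 in non-TPCs. Both arrays of mouse 0107 were below all arrays of the other mice, and its non-TPCs were the lowest. TPCs averaged 9.35 ± 0.59 and non-TPCs 9.02 ± 1.26 (SD, n = 3 each). The difference of 0.34 had the widest interval of the 16 probe sets, -1.20 to 1.87 (limma adjusted p = 0.967). With the mouse as a block the interval was narrower, -0.40 to 1.07 (limma adjusted p = 0.784). Within the mice the difference was -0.32, 0.19 and 1.13. It was -0.39 when the non-TPCs of mouse 0107 were left out and -0.06 when both of its arrays were.

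Cflar, whose gene is the direct neighbour of Casp8 on mouse chromosome 1 in the RefSeq gene order, had 5 probe sets. The brightest, 1424996_at, was at 6.51, 7.40 and 7.51 in TPCs of mice 1127, 920 and 0107, against 7.22, 8.05 and 6.98 in non-TPCs. It was lower in TPCs of mice 1127 and 920, by -0.71 and -0.65, and higher in those of mouse 0107, by 0.53. The mean difference was -0.28 (95% interval -1.17 to 0.62, limma adjusted p = 0.962), and it was -0.68 without both arrays of mouse 0107. The other 4 probe sets had differences between 0.01 and 0.12, and none of the 5 separated the fractions.

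Casp9, the initiator caspase of the mitochondrial arm, was the member with the largest value on the higher side. Its brightest probe set, 1437537_at, was at 8.47, 8.82 and 8.03 in TPCs of mice 1127, 920 and 0107, against 8.002, 7.84 and 7.21 in non-TPCs. Every TPC array was above every non-TPC array, although the lowest TPC and the highest non-TPC array nearly touched. Within the mice it differed by 0.46, 0.98 and 0.82. TPCs averaged 8.44 ± 0.39 and non-TPCs 7.68 ± 0.42 (SD, n = 3 each), a difference of 0.76 (SE 0.28, 95% interval 0.08 to 1.43), or 1.69-fold, which did not pass (limma adjusted p = 0.867, and 0.307 with the mouse as a block). With the block the SE was 0.15. The 2 other probe sets did not show a difference of that size. Probe set 1426125_a_at differed by 0.29 (95% interval -0.06 to 0.64) and was higher in the TPCs of each mouse, while 1457816_at differed by -0.01 (95% interval -0.32 to 0.30).

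Casp1, the inflammatory caspase, had 1 probe set, 1449265_at. It was at 4.11, 4.12 and 4.44 in TPCs of mice 1127, 920 and 0107, against 4.94, 5.13 and 5.27 in non-TPCs. As for Fas, the TPC arrays were all below the first quartile and the fractions did not overlap. The differences were close to each other in the 3 mice, -0.83, -1.01 and -0.83. TPCs averaged 4.22 ± 0.19 and non-TPCs 5.11 ± 0.17 (SD, n = 3 each), a difference of -0.89 (SE 0.15, 95% interval -1.26 to -0.52), or 1.85-fold. Casp1 had the smallest p of the members and did not pass either (limma adjusted p = 0.289, and 0.167 with the mouse as a block).

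**Figure D2:**
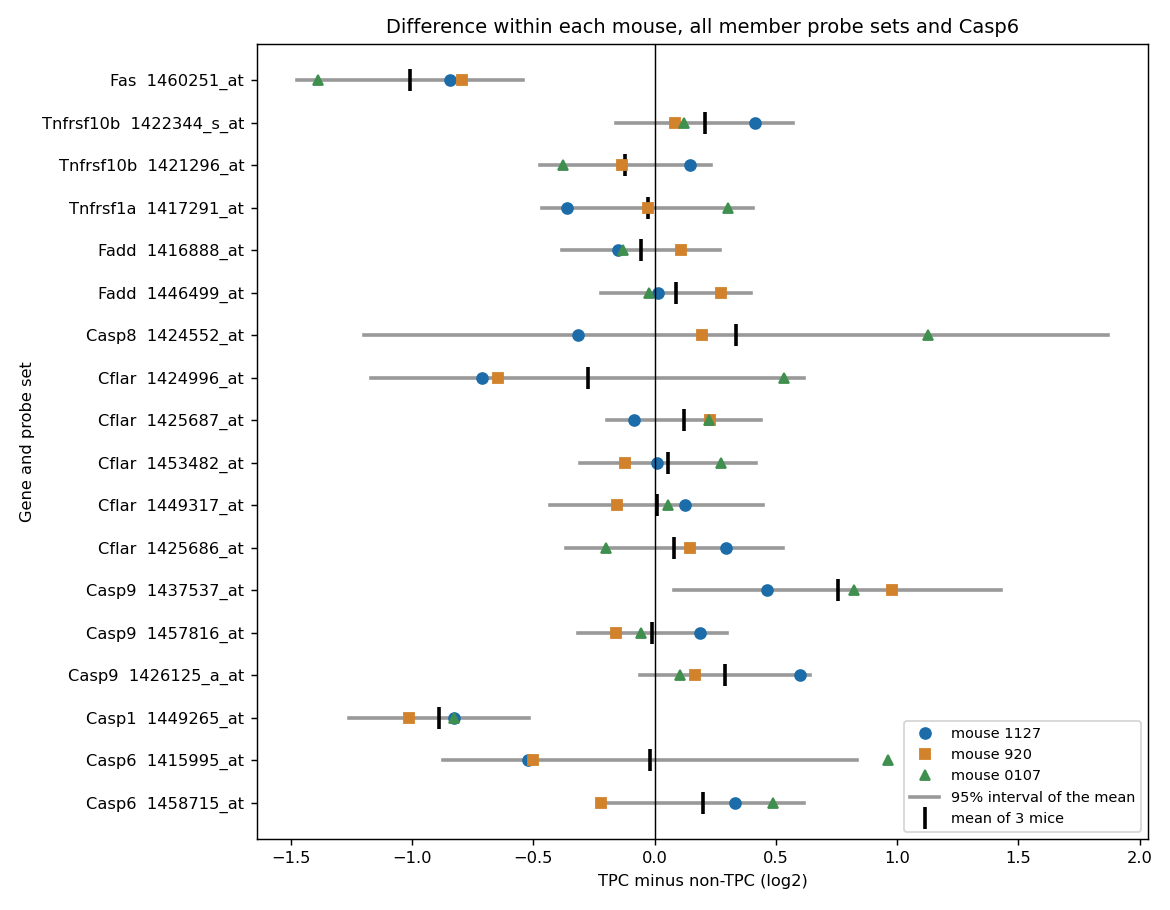
TPC minus non-TPC difference (log2) of the 16 member probe sets and the 2 probe sets of Casp6. Coloured points are the 3 mice, black ticks the mean and grey bars its 95% interval from limma without the mouse as a block. The intervals of Fas, Casp1 and the brightest Casp9 probe set do not include 0 before adjustment, and those of the other 13 member probe sets do.

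The 250 bases before the annotated start sites of Fas, Casp1 and Casp9 are shown because these are the 3 genes whose fractions did not overlap. The sequences are those of RefSeq on build GRCm38.p6, at chr19:34290409-34290658 for Fas, chr9:5298267-5298516 for Casp1 and chr4:141793362-141793611 for Casp9, all on the plus strand. Capitals mark matches on either strand to 6 motifs, which are spelled out after the sequences.
Fas: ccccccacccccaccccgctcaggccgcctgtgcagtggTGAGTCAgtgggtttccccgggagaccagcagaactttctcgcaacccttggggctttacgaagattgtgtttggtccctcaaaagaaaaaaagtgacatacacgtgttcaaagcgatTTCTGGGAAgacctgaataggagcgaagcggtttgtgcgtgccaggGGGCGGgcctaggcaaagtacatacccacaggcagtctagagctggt
Casp1: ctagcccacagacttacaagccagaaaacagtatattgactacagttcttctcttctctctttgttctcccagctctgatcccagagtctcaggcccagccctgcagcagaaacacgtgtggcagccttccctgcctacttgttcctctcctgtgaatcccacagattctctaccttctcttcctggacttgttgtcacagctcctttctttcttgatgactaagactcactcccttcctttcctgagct
Casp9: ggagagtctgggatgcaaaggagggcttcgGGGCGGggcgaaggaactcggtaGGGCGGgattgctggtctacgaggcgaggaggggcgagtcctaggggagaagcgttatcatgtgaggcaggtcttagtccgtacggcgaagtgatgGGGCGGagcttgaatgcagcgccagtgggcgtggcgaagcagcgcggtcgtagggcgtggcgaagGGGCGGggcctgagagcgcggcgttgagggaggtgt
In the Fas window the capitals mark an AP-1 match (TGANTCA), a STAT match (TTCNNNGAA) and an Sp1 match (GGGCGG). The Casp9 window held 4 Sp1 matches and no other, and had a GC content of 66%, against 56.4% for Fas and 49.2% for Casp1. The Casp1 window held none of the 6 motifs. The others searched were the TATA box (TATAAA), the CCAAT box (CCAAT) and ETS (CCGGAAGT). Of 32851 annotated promoters, 6.75% held the AP-1 letters, 7.02% the STAT letters and 32.7% the Sp1 letters, and the shares for the TATA box, the CCAAT box and ETS were 12.4%, 33.8% and 2.88%. In the 4 other members with a listed promoter, Sp1 letters stood in Fadd, STAT letters in Tnfrsf1a, CCAAT in Casp8 and TATA box letters in Cflar.

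The extrinsic arm was set beside an executioner caspase within each pair. The extrinsic arm comprised Fas, Tnfrsf10b, Tnfrsf1a, Fadd, Casp8 and Cflar, each by its brightest probe set. They were set against Casp6, the only executioner caspase gene used here, so the comparison describes that gene and not the executioner arm as a whole. Casp6 was at 7.31, 7.20 and 7.45 in TPCs of mice 1127, 920 and 0107, against 7.83, 7.70 and 6.49 in non-TPCs. It was lower in TPCs of mice 1127 and 920, by -0.52 and -0.50, and higher in those of mouse 0107, by 0.96, which left a mean difference of -0.02 (95% interval -0.87 to 0.83, limma adjusted p = 0.998). A second, dimmer Casp6 probe set differed by 0.20. The median difference of the 6 extrinsic genes was -0.34, 0.03 and 0.21 in mice 1127, 920 and 0107, and -0.04 over the mice. The extrinsic median exceeded the Casp6 difference by 0.18 in mouse 1127 and by 0.53 in mouse 920, and was below it in mouse 0107, with -0.75. The order therefore differed between mice, and over the mice the extrinsic median minus the Casp6 difference was -0.02. No p is given for these medians, because the genes were chosen with earlier results of these data known.

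The directions of the extrinsic genes differed from mouse to mouse. In mouse 1127, 5 of the 6 extrinsic genes were lower in TPCs and 1 was higher, in mouse 920, 3 were lower and 3 were higher, and in mouse 0107, 2 were lower and 4 were higher. The brightest probe sets of Tnfrsf1a, Casp8, Casp9 and Casp6 each had their lowest value of the 6 arrays in the non-TPCs of mouse 0107, which the dimmer probe sets of Casp9 and Casp6 did not. Fas was the only extrinsic gene lower in the TPCs of all 3 mice.

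**Figure D3:**
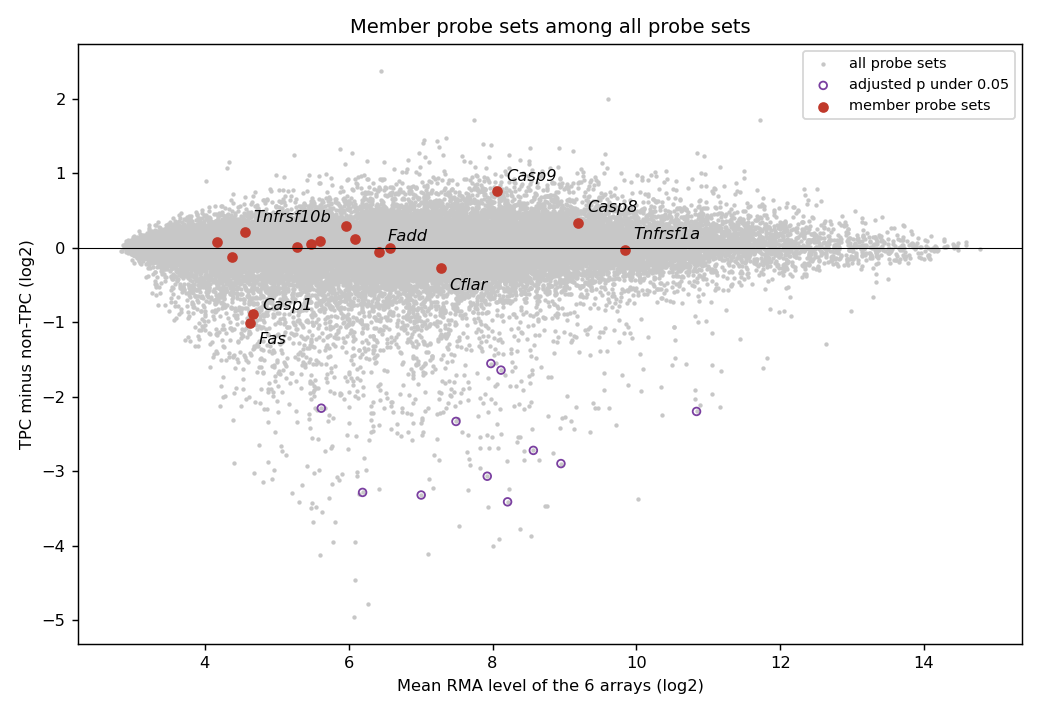
Mean RMA level of the 6 arrays (log2, horizontal) against the TPC minus non-TPC difference (log2, vertical) for all 45037 probe sets in grey. The 16 member probe sets are red and the 11 probe sets with an adjusted p under 0.05 are ringed in violet. Fas and Casp1 lie at the dim end on the lower side, and none of the red points is ringed.

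Of the other genes of these pathways, 59 of 66 listed were measured, and 0 passed in either direction (background 0.0385% of genes). With the mouse as a block 0 passed as well, beside 7 of all 18193 genes. At an unadjusted p under 0.05 without the block, 7 were lower and 2 were higher in TPCs, beside a background of 4.42% of genes lower and 2.35% higher. In 6 genes every TPC array lay below every non-TPC array, and in 2 every TPC array lay above (background 5.91% and 6.71%). The median difference over the 59 genes was 0.01, against 0.04 over all genes.

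Among 5 measured death ligands, 0 passed and the median difference was -0.05. Tnfsf10, which encodes TRAIL, was at 5.40, 5.40 and 5.64 in TPCs of mice 1127, 920 and 0107, against 5.74, 5.93 and 6.33 in non-TPCs (difference -0.52, limma adjusted p = 0.831). Every TPC array was below every non-TPC array. Tnf was lower within each mouse, by -0.45, -0.53 and -0.50, with fractions that overlapped between mice. Its mean difference was -0.49 (adjusted p = 0.921 in limma, and 0.394 with the mouse as a block). Lta, lymphotoxin alpha, differed by 0.06. Fasl, the ligand of Fas, was dim in both fractions, between 4.43 and 4.56 in TPCs and between 4.47 and 4.61 in non-TPCs.

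Among the 9 other receptors of the family the mean differences were small, but in some of them the mice differed in opposite directions. The means ran from -0.07 for Ngfr, the p75 neurotrophin receptor, to 0.15 for Tnfrsf23, a decoy receptor for TRAIL, and 0 passed. Tnfrsf11b, which encodes osteoprotegerin, differed by 0.08. Within mice 1127, 920 and 0107, Tnfrsf25, the death receptor DR3, differed by -0.69, -0.22 and 0.92. Tnfrsf21, the death receptor DR6, differed by -0.18, -0.53 and 0.77 in the same mice.

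Of 18 measured adaptors, kinases and ubiquitin enzymes of the receptor complexes, 9 were below 0 and 9 above it, with a median of 0.004, and 0 passed. The largest values on the lower side were those of Tnfaip3 and Birc3, and neither gene passed. Tnfaip3, which encodes the ubiquitin-editing enzyme A20, was at 7.62, 7.84 and 8.06 in TPCs of mice 1127, 920 and 0107, against 9.27, 9.40 and 8.28 in non-TPCs. It differed by -1.65 and -1.56 in mice 1127 and 920 and by -0.22 in mouse 0107 (mean -1.14, limma adjusted p = 0.707). Birc3, a ubiquitin ligase of the receptor complex, differed by -1.24, -0.92 and -0.003 in the same mice (mean -0.72, limma adjusted p = 0.823). Faim, an inhibitor of Fas-induced death, was higher in the TPCs of each mouse, by 0.30, 0.36 and 0.32 (mean 0.33, limma adjusted p = 0.827), and its fractions did not overlap.

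The 8 genes of the apoptosome and its inhibitors had a median difference of 0.01, with 0 past the test. Bid, which carries the caspase-8 signal to mitochondria, differed by -0.38, Htra2, a mitochondrial protease, by -0.32 and Diablo, an antagonist of caspase inhibitors, by 0.24. The limma adjusted p was 0.954 for each. Within mice 1127, 920 and 0107 Bid differed by -0.08, -0.04 and -1.03, Htra2 by -0.44, -0.12 and -0.41, and Diablo by 0.12, 0.66 and -0.05. Of 7 executioner targets 0 passed, with a median of 0.19. Rock1, a kinase that caspases activate by cleavage, was higher in the TPCs of each mouse, by 0.24, 0.50 and 0.89 (mean 0.54, limma adjusted p = 0.755). Dffb, the nuclease that fragments DNA in apoptosis, differed by -0.72, with its highest value, 7.23, in the non-TPCs of mouse 0107. Parp1, a DNA repair enzyme cut by executioner caspases, differed by 0.19.

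The inflammasome list held the largest differences of the pathway lists, those of Il1b and Casp4, both on the lower side. Of 11 measured genes 0 passed, 4 had an unadjusted p under 0.05 and were lower (background 4.42% of genes), and the median was -0.13. Il1b, whose protein caspase-1 matures, was at 6.88, 7.97 and 7.16 in TPCs of mice 1127, 920 and 0107, against 10.28, 9.77 and 9.27 in non-TPCs. The fractions did not overlap, and the difference was -2.43 (SE 0.36, limma adjusted p = 0.184), or 5.41-fold. Casp4, the mouse gene for caspase-11, which lies next to Casp1 on chromosome 9 with no protein-coding gene between them, was at 5.40, 5.12 and 5.91 in TPCs, against 7.75, 7.35 and 6.35 in non-TPCs. Its fractions did not overlap either (difference -1.67, adjusted p = 0.543 in limma). Casp12, the next gene of the same cluster, differed by -2.01, -0.43 and -0.49 in the 3 mice (mean -0.98, limma adjusted p = 0.887). Casp12 was lower in the TPCs of each mouse, but its fractions overlapped.

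**Figure D4:**
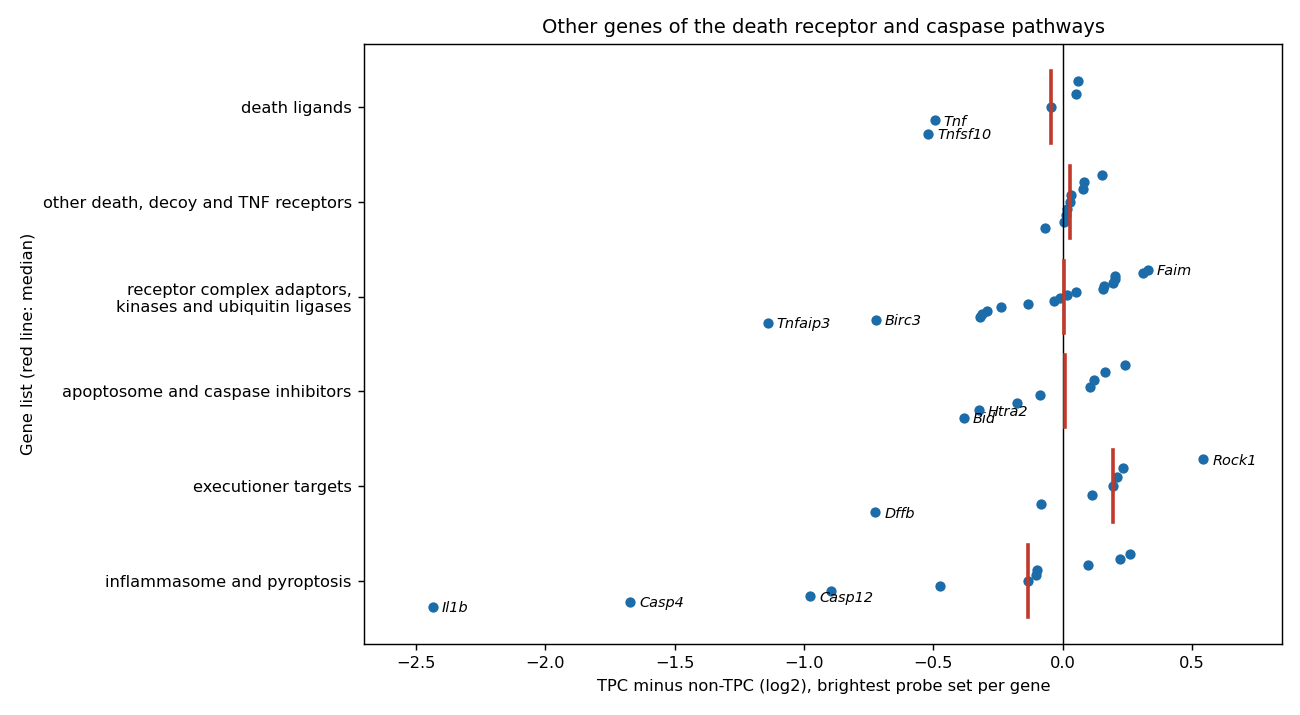
TPC minus non-TPC difference (log2, horizontal) of 58 measured pathway genes, 1 point per gene by its brightest probe set, in 6 lists (Casp6 is not repeated). Red lines are list medians, between -0.13 and 0.19, and the named points are among the 3 genes of smallest p in their list. Il1b and Casp4 are the points farthest to the left.

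Most markers of the general leukocyte, macrophage, neutrophil, alveolar, club cell, fibroblast and endothelial lists had lower mean values in TPCs, as Fas, Casp1 and Il1b did. The T and NK cell and B cell lists were mixed. The surfactant genes Sftpa1 (difference -3.41, limma adjusted p = 0.00942) and Sftpc (difference -2.20, limma adjusted p = 0.0378) passed, both of the alveolar type 2 list. With the mouse as a block Sftpc did not pass (limma adjusted p = 0.0736), and the club cell gene Bpifa1 did (difference -4.01, limma adjusted p = 0.0479, against 0.284 without the block). No other listed marker passed in either fit. Of 8 macrophage and monocyte markers 7 were lower in the TPCs of all 3 mice, a direction that 13.8% of all genes shared, and the log2 of their summed signal was 10.78 to 12.11 in TPCs and 11.94 to 13.36 in non-TPCs. For 8 leukocyte markers (6 lower and 1 higher in all 3 mice) it was 10.22 to 10.78 in TPCs and 10.79 to 11.63 in non-TPCs. For 5 neutrophil markers (4 lower) it was 8.18 to 8.997 in TPCs and 10.81 to 11.28 in non-TPCs. The brightest leukocyte markers, Laptm5 and Tyrobp, differed by 0.02 and -1.38. The brightest macrophage markers, Lyz2 and Cd14, differed by -1.22 and -2.42. Alveolar type 2 markers (5 of 6 lower) had 10.88 to 11.09 in TPCs and 12.65 to 13.38 in non-TPCs, and fibroblast markers (5 of 6 lower) 10.53 to 11.65 in TPCs and 11.77 to 14.38 in non-TPCs. For alveolar type 1 markers (4 of 6 lower in all 3 mice) it was 9.67 to 9.96 in TPCs and 10.30 to 12.01 in non-TPCs. For club cell markers (4 of 4 lower) it was 13.22 to 14.25 in TPCs and 13.59 to 15.43 in non-TPCs. All 6 endothelial markers had a mean difference below 0, with a median of -1.06, and 2 of them were lower in all 3 mice. The log2 of their summed signal was 10.52 to 11.02 in TPCs and 10.93 to 11.33 in non-TPCs. Vwf, the brightest of them, differed by -0.03. The B cell markers had 7.20 to 7.45 in TPCs and 6.95 to 7.48 in non-TPCs, and the T and NK cell markers had 8.23 to 8.86 in TPCs and 8.20 to 8.88 in non-TPCs. No marker of the leukocyte, macrophage, neutrophil, alveolar or fibroblast lists was below the first quartile on all arrays, and RMA gives no value of 0. The 8 measured neuroendocrine markers of the tumour cells had 13.65 to 14.19 in TPCs and 13.50 to 13.98 in non-TPCs. Of these, 3 were higher in the TPCs of all 3 mice and 0 lower in all. In mouse 920 their summed signal was lower in TPCs, 13.65 against 13.79. In sorted bulk samples fewer cells of a type and less RNA per cell cannot be told apart, and the part of these cells in the values of Fas, Casp1 and the inflammasome genes was not tested.

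The genes whose pattern over the 6 arrays was most like each member were sought among 8847 named genes above the median gene level. For Fas they were Fmo1 (Pearson r 0.992), Rchy1 (0.984) and Mfge8 (0.982). For Casp1 they were Ppp1r9a (0.987), Pxdc1 (0.986) and Idh1 (0.981). For Casp9 they were Umod (0.994), Rprd1b (0.993) and Lrp11 (0.986). For Casp8 they were Smc6 (0.996), Ccdc51 (0.994) and Zbtb11 (0.993), and for Cflar they were Secisbp2l (0.999), Tnip2 (0.973) and Amdhd2 (0.968). Tnfrsf1a was most like Abcc4 (0.995), Naprt (0.989) and Zfp950 (0.986), Tnfrsf10b most like Kcnj11 (0.998), Pim3 (0.994) and Wdr54 (0.988), and Fadd most like Tfdp1 (0.985), Atg5 (0.976) and Abhd13 (0.954). The 6 arrays are 3 pairs from the same animals, and coefficients of this size describe these arrays only. Each is among the highest of 8847 genes searched, and whether such a search gives them without any link between the genes was not tested.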

How the data were processed

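RNA from 6 sorted samples was measured on 1-colour Affymetrix arrays. The deposited table holds log2 signals per probe set, made by the authors with RMA (background correction, quantile normalisation and probe summary), per the submitters' processing notes. The sources used here give neither the RMA version nor the log base. Values from 2.70 to 14.81 place the table on a log2 scale. The probe annotation is that of a 3′ expression array, whereas the labels' protocols name a whole-transcript labelling kit. Arrays carry no read depth.

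Of 45101 probe sets, 64 controls were left out, 34945 had 1 symbol, 932 several and 9160 none. Probe sets were assigned to genes by the platform annotation. Symbols were updated to the RefSeq table of GRCm38.p6 where it held the gene. Of 18193 genes, 18145 had a symbol of that table and 48 kept the symbol of the platform. Samples were grouped by title, with 3 arrays per fraction. All 45037 probe sets were fitted together by limma (version 3.58.1, R version 4.3.3, lmFit followed by eBayes, two-sided tests). The fraction was the only term, and the Benjamini-Hochberg threshold was 0.05. Pathway genes use the probe set with the highest mean. No intensity filter was applied. The fit was also run on simulated arrays with known shifts, to check the mean error of the estimated shifts. How often such shifts passed the threshold is not reported here.

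Each mouse gave both of its fractions, so the mice pair the samples. Deviations from the fraction means correlated at 0.314, 0.502 and 0.381 within mice 1127, 920 and 0107, and between -0.32 and -0.06 across mice. The deviations cancel within a fraction, so positive values within mice make those across mice negative on balance. The blocked fit, with a term for each mouse, left 2 residual degrees of freedom against 4.

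The text names all member probe sets, Casp6, up to 3 genes of smallest p per pathway list, up to 2 brightest genes per marker list and the 3 genes most like each member. Fasl, Tnfrsf21, Tnfrsf25, Sftpa1 and Bpifa1 fall outside that rule. These genes were picked with knowledge of their results. Alternatives were the pairing, 1 probe set per gene, an intensity filter, an intensity trend, other centring and leaving out mice or arrays. The members and lists were chosen with earlier results of these data known.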

Additional observations from a re-analysis of the deposited data

How the results depend on the processing

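Under all 16 other settings 0 member probe sets passed the limma threshold, with 0 to 3 of them at an unadjusted p under 0.05. Fas and Casp1, at the dim end, were not among the probe sets above the median level. In the other settings the difference of Fas kept its sign (-1.13 to -0.81, adjusted p 0.108 to 1), as did those of Casp1 (-0.999 to -0.80, adjusted p 0.102 to 1) and the brightest Casp9 probe set (0.52 to 0.96, adjusted p 0.307 to 1). The adjusted p of 1 came from centring on control probe sets or from leaving out arrays. The count over all probe sets, 11 in the main comparison, was 9 under a replicate block by mouse, 52 under a random block, 24 with an intensity trend, 35 of 22518 above the median level and 240 with arrays centred on their control probe sets. Without any 1 mouse or array it was 0 to 72, and the replicate block changed no member's call. Several member differences changed sign, those of Casp8 and the brightest Cflar probe set among them. With arrays centred on their medians Casp9 1457816_at was 0.0102. Centred on control probe sets it was 0.0803, Tnfrsf1a 0.0613 and Fadd 1416888_at 0.033. When 1 mouse or array was left out, Casp8 ranged from -0.39 to 0.74, Tnfrsf1a from -0.19 to 0.14, Tnfrsf10b 1421296_at from -0.255 to 0.0068, Fadd 1416888_at from -0.14 to 0.0247, Fadd 1446499_at from -0.005 to 0.16 and Casp9 1457816_at from -0.11 to 0.0649. The Cflar probe sets ranged from -0.68 to 0.0419 (1424996_at), -0.0482 to 0.24 (1425686_at), -0.14 to 0.15 (1449317_at) and -0.0761 to 0.14 (1453482_at). The extrinsic median minus the Casp6 difference was -0.08 with all probe sets of a gene averaged, and -0.28 to 0.38 when a mouse or array was left out. The cause of these changes was not tested. Weak signal limits Fas, Casp1 and Tnfrsf10b.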
